A study of Triticum aestivum with 24 samples.

Results

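In leaves of winter bread wheat at the start of flowering, 272 of 105200 genes stood high in both the control and the drought group and low in each of the 6 groups with elevated temperature, elevated CO2, or both. They were chosen from the deposited expression table itself. Each library was first divided by its median over the 32436 genes with at least 1 FPKM in all 24 libraries and multiplied by the mean of those medians. FPKM counts sequenced fragments relative to transcript length and to all mapped fragments, and values after this division are called scaled FPKM. Group means were then taken of log2(scaled FPKM + 1). A gene was kept when the lower of the control and drought means exceeded the highest of the other 6 group means by at least 0.8, a difference called the gap. A stretch of 37 identifiers on chromosome 2B, of which 2 met the same gap, was left out by the rule.

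The plants were of cultivar Alana, and poly-A RNA came from the main tiller, from its leaves 3 and 4, at growth stage 61. Of the 8 groups, 1 is labelled control and 7 had drought (25 ± 5% soil water), warmth up to 31 °C, CO2 at 700 ppm, or a combination of them. There were 3 libraries per group, labelled as biological replicates. The groups are called control, drought, temperature, CO2, temperature+drought, CO2+drought, CO2+temperature and CO2+temperature+drought. Whole leaves were measured, so fewer cells of a type and less RNA per cell cannot be told apart.

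Elevated CO2 raises the supply of carbon to photosynthesis in wheat, a C3 grass, and tends to narrow the stomata and save water. Warmth speeds development and brings forward leaf senescence, the ordered breakdown of the leaf that sends nitrogen to the grain. Drought closes stomata through abscisic acid and slows growth. Bread wheat carries 3 related subgenomes, A, B and D, so many genes exist as closely similar copies. The files pair the identifiers with no gene names, and none matched a gene of the RefSeq table for assembly IWGSC CS RefSeq v2.1 (0 of 105200). Genes are therefore given by identifier, with no function assigned, and levels of single copies are uncertain because the sources used here do not say how fragments were divided among copies. In an identifier such as TraesCS5D02G180900, 5D names the chromosome and its subgenome.

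The 24 libraries listed 61757 to 64248 genes above 0 FPKM. The median used for scaling was 5.97 to 6.43 FPKM in the 6 temperature+drought and CO2+drought libraries and 7.05 to 7.45 FPKM in the other 18. This difference of scale falls between groups, so it cannot be told apart from those treatments. The CO2+temperature+drought libraries, also with drought, were at 7.22 to 7.28 FPKM. The temperature+drought and CO2+drought libraries are also labelled in another form than the rest, without an R before the replicate number. Whether they were quantified separately is not given, and a factor per library could not correct this gene by gene. Any comparison that crosses this difference of scale depends on the scaling, which assumes that the typical gene did not change.

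Control levels of the 272 genes ran from 1.21 to 338 scaled FPKM, with a median of 17.8. In control, 47 genes averaged under 5 FPKM, 172 between 5 and 50, and 53 at least 50. The median over the 272 genes was 4.11, 4.19 and 4.30 on the log2(scaled FPKM + 1) scale in the 3 control libraries and 4.40, 4.31 and 4.14 in the 3 drought libraries. It was 2.05, 2.39 and 2.75 under temperature, and 2.46, 2.41 and 2.42 under CO2. In these units the median of all genes tested stayed between 2.40 and 2.46 in every library. Control and drought libraries had medians over the set well above it, and most treated libraries had medians near or below it. The rule favours genes with high values in control and drought, so their place above the typical gene there is no finding. The combined groups were at 2.05, 1.35 and 1.65 (temperature+drought), 1.74, 2.40 and 2.14 (CO2+drought), 2.28, 2.25 and 2.27 (CO2+temperature), and 1.49, 1.98 and 2.51 (CO2+temperature+drought). The 6 control and drought libraries thus lay apart from the 18 others, as the choice of the genes requires.

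**Figure D1:**
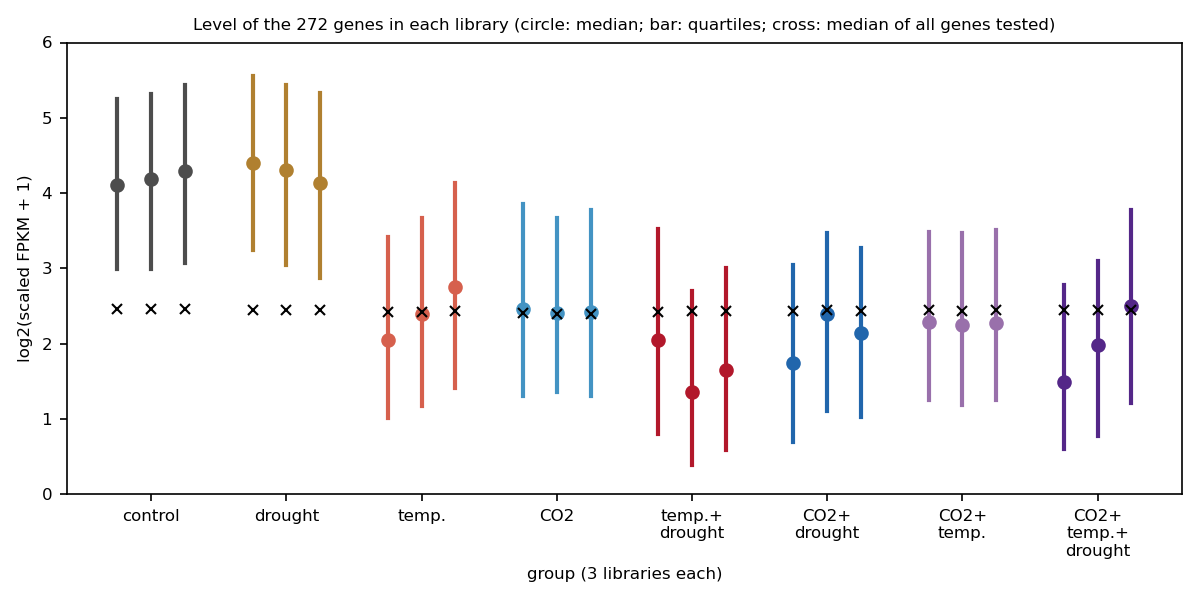
Median (circle) and quartiles (bar) of log2(scaled FPKM + 1) over the 272 genes in each of the 24 libraries, by group, with the median of all genes tested as a cross. The control and drought medians lie between 4.11 and 4.40, and those of the other 18 libraries between 1.35 and 2.75.

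The gap ran from 0.80 to 3.56, with a median of 1.05. It was at least 1 in 154 genes and at least 2 in 11. For 231 of the 272 genes all 6 control and drought libraries lay above all 18 others. The same order held in 1.97% of the 45384 genes tested, but the rule used these values, so nothing is read from the difference. Just inside the threshold were TraesCS3B02G024200 and TraesCS4B02G104900, with gaps of 0.8026 and 0.8019, and just outside were TraesCS5A02G386000 and TraesCS1B02G397900, with 0.7996 and 0.7986. The same gap in the other direction, low in control and drought and high in all other groups, was met by 32 genes.

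**Figure D2:**
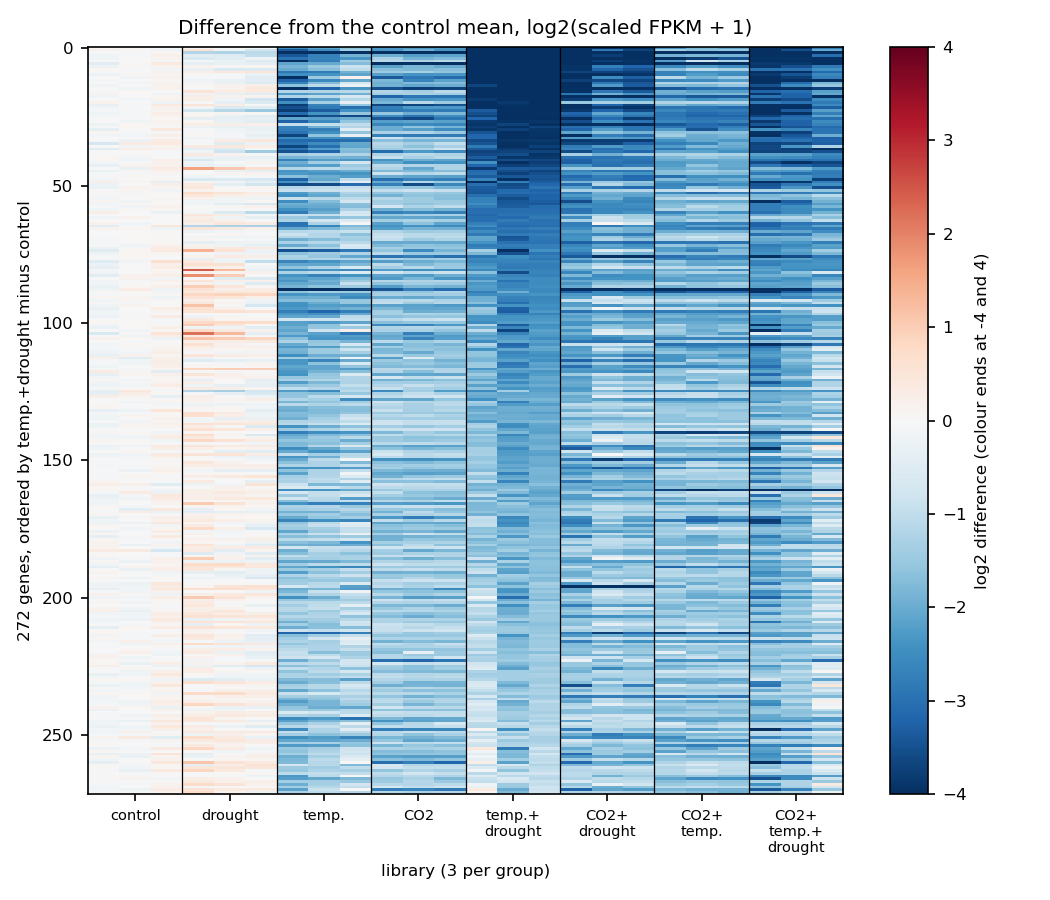
Difference of log2(scaled FPKM + 1) from the control mean for the 272 genes (rows, ordered by temperature+drought minus control) in the 24 libraries (columns, 3 per group). Drought columns stay near 0, the 18 columns of the other groups are below 0 for nearly all genes, and the temperature+drought columns hold the deepest losses.

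Losses differed in depth. The median gene kept 27.6% of its control level under temperature and 28.8% under CO2, with quartiles of 18.6% and 40.2%, and of 16.9% and 38.0%. It kept 23.98% under CO2+temperature, 19.9% under CO2+drought, 19.9% under CO2+temperature+drought and 16.4% under temperature+drought. Temperature+drought had the lowest of the 6 means in 133 genes and the highest in 20. The CO2 group had the highest in 87 genes and the temperature group in 71. Under temperature+drought, 102 genes were below 10% of control and 8 were listed at 0 in all 3 libraries, against 30 and 0 genes under temperature alone. Because a 0 in an FPKM table may also mark an estimate that failed, these genes are called listed at 0 and not absent. None of these counts was taken over all genes tested, so the order of depth is not read as particular to the set. The temperature+drought and CO2+drought libraries also lie across the difference of scale, so their depth depends on the scaling.

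The gap was also measured in libraries that took no part in choosing. When genes were chosen by the same rule on the libraries numbered 2 and 3 of each group, 215 genes were found, and in the libraries numbered 1 the gap was above 0 in 208 of them and at least 0.8 in 134. Among all genes tested these shares were 9.32% and 0.577%. Leaving out the libraries numbered 2 gave 255 genes, 245 above 0 and 176 at 0.8 or more (all genes 9.23% and 0.557%). With the libraries numbered 3 left out, 284 genes were found, of which 243 were above 0 and 121 reached 0.8 (all genes 7.28% and 0.335%). The median gap in the left-out libraries was 0.934, 1 and 0.738, against 1.06, 1.05 and 1.06 in the libraries used to choose. In the left-out libraries the order was kept in most of the genes chosen, with smaller gaps in those numbered 3. The gap is a lowest mean minus a highest mean, so its median over all genes tested was below 0 (-0.441, -0.407 and -0.416). Shares above those of all genes are therefore not read as support for the set. The left-out libraries also came from the same groups, and the scaling used all 24 libraries.

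The genes with the largest gaps stood at low levels outside control and drought. TraesCS5D02G180900 stood at 58.9, 58.6 and 67.1 scaled FPKM in the 3 control libraries and 26.5, 26.0 and 29.1 under drought. It stood at 0, 0.740 and 1.57 under temperature, 1.88, 1.34 and 1.004 under CO2 and 0.0953, 0.831 and 0.458 under CO2+temperature. With drought added it was at 0.808, 0 and 0.426 (temperature+drought), 0.229, 0.103 and 0.259 (CO2+drought) and 0, 0 and 0.323 FPKM (CO2+temperature+drought). The 3 drought libraries lay below the 3 control libraries, and the 18 others lay far below both. TraesCS2D02G107600 was at 24.9, 21.9 and 28.4 in control and 23.9, 27.7 and 33.5 under drought, and its highest value elsewhere was 4.21 FPKM. Control and drought libraries overlapped and lay far above the rest. TraesCS5A02G190700 was at 20.5, 22.4 and 24.6 in control and 25.0, 17.9 and 15.8 under drought. Its levels elsewhere ranged up to 4.41 FPKM, in CO2+temperature+drought replicate 3.

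TraesCS4D02G360000 differed more among the treated groups. It stood at 35.4, 51.6 and 37.0 scaled FPKM in control and 61.1, 46.7 and 50.2 under drought. Under temperature it was at 0.550, 0.486 and 1.98, and under temperature+drought at 7.76, 6.50 and 6.08. The level in warm plants was higher with drought, in libraries that did not overlap. CO2 gave 2.82, 5.08 and 3.90 FPKM and CO2+drought 0.755, 0.541 and 1.87, also without overlap but in the other direction.

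The most abundant genes of the set in control were TraesCS4D02G344300, TraesCS7A02G034500, TraesCS5A02G518300 and TraesCS3B02G152200. TraesCS4D02G344300 was at 308, 344 and 361 scaled FPKM in control, 407, 382 and 374 under drought, 143, 161 and 213 under temperature and 35.4, 45.0 and 43.3 under CO2. It stood at 18.4, 17.8 and 17.1 under temperature+drought and at 13.3, 17.7 and 12.9 under CO2+drought. The 3 temperature libraries lay below control and drought and above the 15 libraries of the other groups. TraesCS5A02G518300 had a like order, at 252, 308 and 310.2 in control, 346, 338 and 329.5 under drought, 150.1, 148 and 145 under temperature and 46.1, 48.4 and 46.1 under CO2. TraesCS7A02G034500 was at 292, 301 and 285 in control, 269.6, 290.2 and 283 under drought, 50.6, 67.1 and 92.8 under temperature, 58.5, 60.4 and 59.6 under CO2 and 54.7, 81.8 and 67.9 under CO2+temperature. Levels were much lower in the groups that added drought, at 2.86, 0.621 and 1.23 (temperature+drought), 3.60, 10.8 and 7.14 (CO2+drought) and 2.24, 14.0 and 42.4 FPKM (CO2+temperature+drought). TraesCS3B02G152200 ranged from 212, 235 and 262 in control to 73.7, 19.4 and 36.5 under temperature+drought, and its values of 46.1, 74.4 and 149.6 under CO2+temperature+drought overlapped with those of the temperature group.

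**Figure D3:**
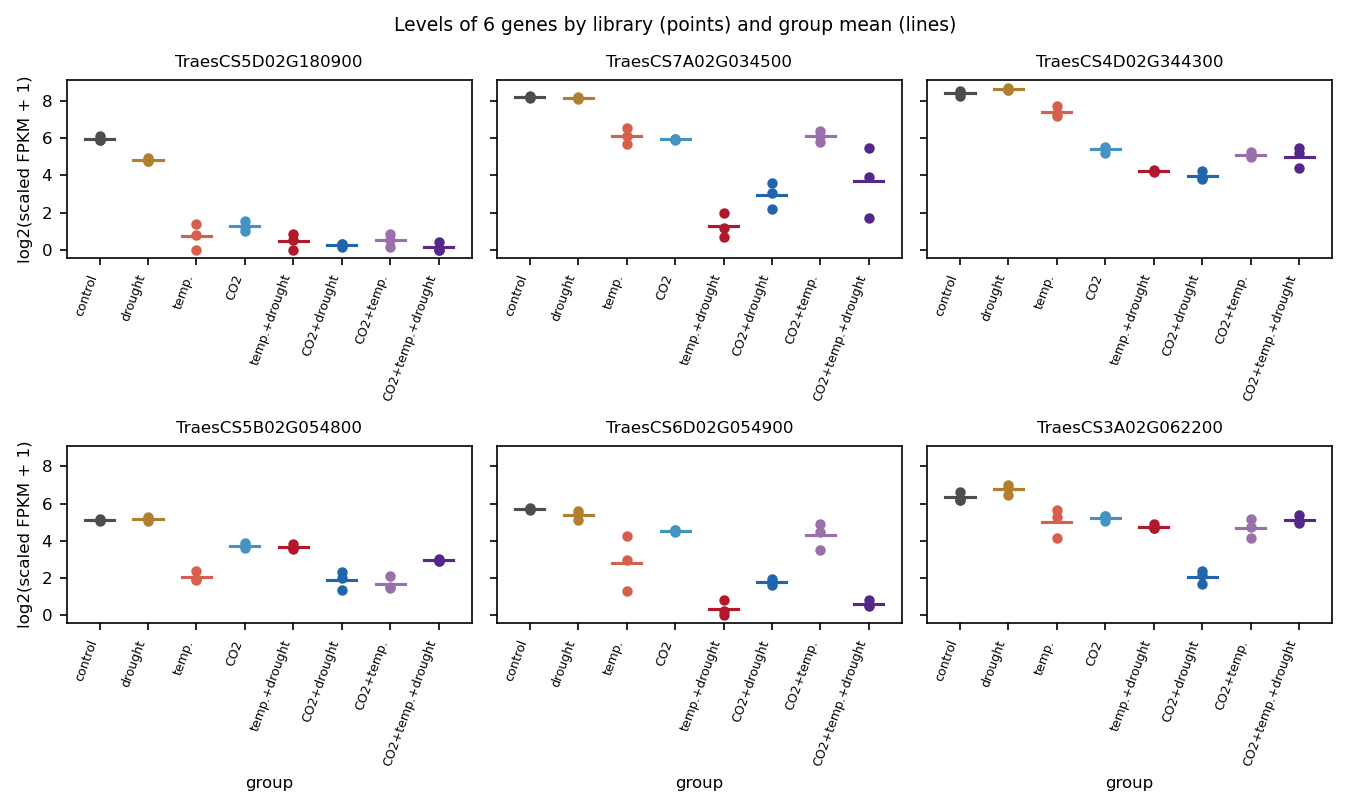
log2(scaled FPKM + 1) of 6 of the named genes in each library (points) with group means (lines). All 6 are high in control and drought, and they differ in which of the other 6 groups holds the lowest level: TraesCS7A02G034500 and TraesCS6D02G054900 are lowest under temperature+drought and TraesCS3A02G062200 under CO2+drought.

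The 272 genes moved together between libraries of the same group. Temperature replicate 3 was the highest of its group in 197 genes (72.4%, against 39.4% of all genes tested) and temperature replicate 1 the lowest in 178 (65.4%, against 35.4%). CO2+temperature+drought replicate 3 was highest in 202 genes (74.3%, against 41.2%), temperature+drought replicate 1 in 198 (72.8%, against 40.1%) and CO2+drought replicate 2 in 185 (68.0%, against 41.1%). Control replicate 3 was highest in 171 genes (62.9%, against 34.3%) and drought replicate 1 in 170 (62.5%, against 36.6%), while drought replicate 3 was lowest in 166 (61%, against 32.8%). The CO2 and CO2+temperature libraries showed no such leading library, since none was highest in over 47.1% of the genes. The SD between replicates, as the median over genes on the log2 scale, was 0.393 in CO2+temperature+drought and 0.301 in both temperature and temperature+drought. For all genes tested it was 0.153, 0.132 and 0.183 in those groups, and in CO2 it was 0.119 for the set and 0.0923 for all genes (n = 3 libraries each). Differences that involve these groups therefore rest on a wide spread.

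The rule set control and drought against the other groups, so only differences within each of these sets were tested. The test was limma on log2(scaled FPKM + 1) over the 45384 genes that reached 1 scaled FPKM in 3 or more libraries. P-values were two-sided and adjusted by Benjamini and Hochberg over all of these genes, with calls made below 0.05. Of the 272 genes, 271 entered the test, and TraesCS2A02G027400 fell below the filter. The set was chosen for high values in control and drought, so passing the filter is no finding.

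Between drought alone and control, 262 of the 271 genes were not called, which does not show that they were equal. Of the rest, 7 were called higher and 2 lower under drought (2.58% and 0.738%, against 0.884% and 0.91% of all genes tested). Both directions together made 3.32%, against 1.79%. The median change was 0.07 on the log2 scale, against -0.00474 for all genes, and the change was positive in 162 genes and negative in 109. The SD between replicate medians over the set was 0.117, larger than this median change, which was 0.03 without drought replicate 1, 0.04 without control replicate 2, 0.11 without drought replicate 3 and 0.12 without control replicate 3. TraesCS7A02G512400 rose from 14.5, 11.6 and 18.5 to 46.8, 32.0 and 23.8 scaled FPKM (log2 change 1.12; limma adjusted p = 0.013), and TraesCS2A02G454400 from 6.18, 5.73 and 4.39 to 12.9, 11.6 and 10.6 (0.99, limma adjusted p = 0.0069). Drought and control libraries did not overlap in either gene. The other 5 that rose were TraesCS4B02G104900, TraesCS4D02G170300, TraesCS7A02G377500, TraesCS7B02G278800 and TraesCS7D02G373800. TraesCS4D02G118300 fell from 13.4, 17.6 and 25.3 to 7.45, 6.98 and 6.79 FPKM (-1.25; limma adjusted p = 0.022), and TraesCS5D02G180900, given above, fell by 1.15 (limma adjusted p = 0.023). TraesCS2A02G454400 lost its call with a pseudocount of 0.1 in place of 1 (limma adjusted p = 0.49), and TraesCS7A02G512400, TraesCS4D02G118300 and TraesCS5D02G180900 did so too. The calls of these 3 were also lost on leaving out single libraries: TraesCS7A02G512400 without replicate 1 or 2 of either group (limma adjusted p = 0.051 to 0.1; 0.055 when only the libraries compared were fitted), TraesCS4D02G118300 without control replicate 2 or 3 or any drought replicate (0.055 to 0.12), and TraesCS5D02G180900 without any control replicate or drought replicate 1 or 2 (0.066 to 0.1). The rule itself bounds how far a gene can fall under drought, and the total called was 5 on leaving out drought replicate 1, drought replicate 2 or, among the controls, replicate 2.

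When drought was added to a treated background, more genes of the set were called lower than higher. The SD between replicate medians over the set was 0.35 for drought added to temperature and 0.234 for drought added to CO2. It was 0.358 for drought added to CO2+temperature, larger than the median change there, given below. Compared with temperature alone, temperature+drought plants had 114 of the 271 genes lower and 15 higher. The lower share was 42.1%, against 19.4% of all genes tested, and the higher share 5.54%, against 18.1% (both directions 47.6%, against 37.5%). The median change was -0.45, against -0.04 for all genes, and 73 of the genes called lower fell by at least 1 on the log2 scale. The 3 temperature+drought medians over the set, 1.35 to 2.05, reached up to the lowest temperature library at 2.05. CO2+drought plants, compared with CO2 alone, had 85 genes lower and 8 higher (31.4% and 2.95%, against 9.4% and 11.3%; both directions 34.3%, against 20.7%). Their median change was -0.32, against 0.003 for all genes, and 48 of those called lower fell by at least 1. Without CO2+drought replicate 1 the counts were 67 lower and 17 higher, and without CO2 replicate 3 they were 71 lower and 5 higher. CO2+temperature+drought plants, compared with CO2+temperature, had 58 genes lower and 11 higher (21.4% and 4.06%, against 13.4% and 9.55%; both directions 25.5%, against 23%), with a median change of -0.16, against -0.03. Without CO2+temperature+drought replicate 1 the counts were 37 lower and 24 higher and the median change -0.03, and without replicate 3 they were 85 lower and 13 higher and -0.41. The library medians of CO2+temperature+drought, 1.49 to 2.51, spanned those of CO2+temperature, 2.25 to 2.28. The first and second of these comparisons cross the difference of scale between libraries, and the third does not. Falls of at least 1 were not counted over all genes tested, so those counts are not read as particular to the set.

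These 3 comparisons share no library, but they used the same estimate of spread for each gene. The first and second also cross the same difference of scale. Calls in the 3 are therefore not independent. Part of the set was called lower in more than 1 of the 3. Of the 271, 34 were called lower in all 3, 41 in 2 and 73 in 1 (12.5%, 15.1% and 26.9%, against 1.22%, 6.68% and 25.2% of all genes tested). A negative change in all 3 was found in 114 genes (42.1%, against 20%). The number lower with drought under both temperature and CO2 was 58, which is 50.9% of the 114 called lower under temperature and 68.2% of the 85 called lower under CO2. It was 49 for temperature and CO2+temperature (43% of the 114 and 84.5% of the 58) and 36 for CO2 and CO2+temperature (42.4% of the 85 and 62.1% of the 58). These are 21.4%, 18.1% and 13.3% of the set, against 3.65%, 4.62% and 2.06% of all genes tested. No call was made for 109 genes in any of the 3 (40.2%, against 44.6%), and 12 were called in opposite directions (4.43%, against 6.33%). Whether drought acted differently in treated and untreated plants was not tested, because the rule limits how far a gene could fall under drought alone.

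**Figure D4:**
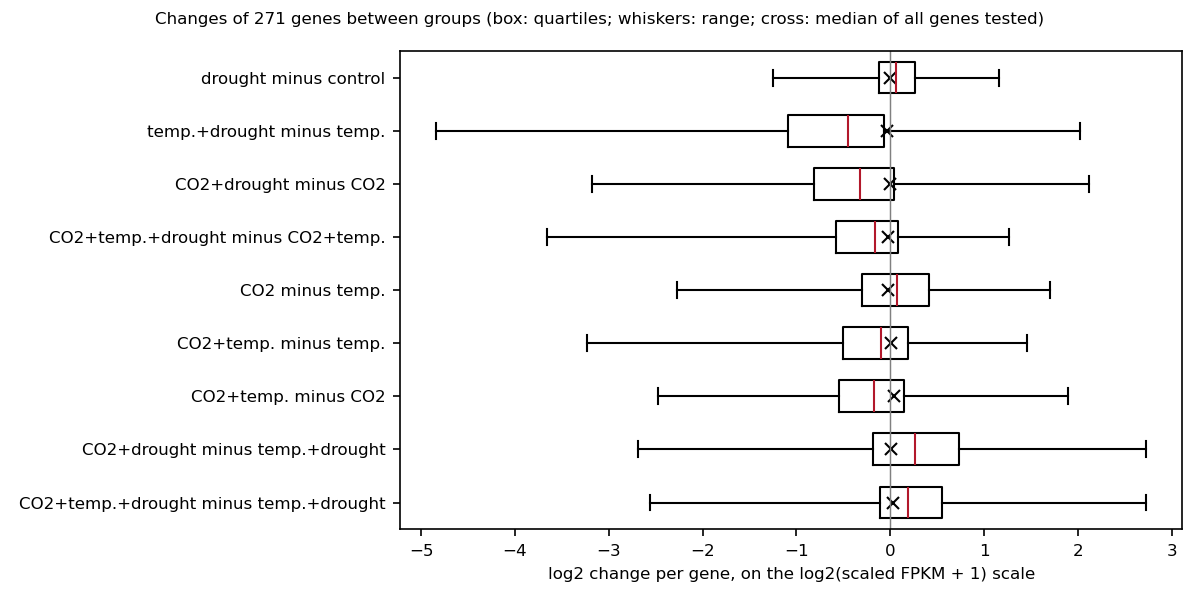
Log2 changes of the 271 tested genes in 9 comparisons (box: quartiles and median; whiskers: lowest and highest; cross: median of all genes tested). The boxes for drought added to temperature, to CO2 and to both lie mostly below 0, with medians of -0.45, -0.32 and -0.16, and the box for drought alone is centred near 0.

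Individual genes showed how unlike the additional drought response could be. TraesCS7A02G034500, given above, fell by 4.84 when drought was added to temperature (SE 0.56; limma adjusted p = 1.5e-06) and by 2.41 when it was added to CO2+temperature (limma adjusted p = 0.0038). The second call was lost when only the 6 libraries compared were fitted (limma adjusted p = 0.11), and without CO2+temperature+drought replicate 1 the fall was 1.42. TraesCS5B02G268300 stood at 109, 101 and 84.8 scaled FPKM in control, 143, 87.6 and 56.0 under drought and 8.39, 16.4 and 36.1 under temperature. It was nearly gone under temperature+drought, at 0.348, 0.113 and 0.132 (log2 change -3.93, SE 0.57; limma adjusted p = 2.2e-05). The 3 libraries of temperature+drought lay below every other library for this gene. TraesCS6D02G054900 was at 52.3, 51.9 and 48.8 in control and 10.4, 29.1 and 21.1 under CO2+temperature, and at 0.435, 0.455 and 0.798 with drought added (-3.66, SE 0.45; limma adjusted p = 8.6e-06).

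For CO2 the largest further losses were in TraesCS3A02G062200 and TraesCS1A02G290100. TraesCS3A02G062200 went from 39.3, 32.8 and 39.2 under CO2 to 2.19, 4.22 and 3.46 under CO2+drought (-3.17, SE 0.29; limma adjusted p = 3.8e-07), while temperature+drought held it at 25.1, 25.2 and 28.4. TraesCS1A02G290100 went from 34.8, 23.0 and 25.2 to 2.48, 1.29 and 3.68 (-3.08, limma adjusted p = 2.3e-07). In both genes the libraries compared did not overlap.

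A small number of genes went the other way. TraesCS5B02G054800 was at 35.3, 32.6 and 33.1 scaled FPKM in control, 2.74, 2.90 and 4.25 under temperature and 13.2, 11.2 and 10.9 under temperature+drought, a rise of 1.58 (SE 0.19; limma adjusted p = 2.1e-06). It also rose when drought was added to CO2+temperature, from 1.74, 3.28 and 1.92 to 6.69, 6.69 and 7.13 (1.27, limma adjusted p = 6.5e-05). With drought added to CO2 alone it fell, from 13.9, 11.03 and 12.1 to 4.05, 1.58 and 2.96 (-1.84, limma adjusted p = 1.7e-06). TraesCS4D02G360000 rose by 2.03 with drought under temperature (limma adjusted p = 0.0002) and fell by 1.29 with drought under CO2 (limma adjusted p = 0.016). TraesCS6D02G256700 rose from 2.69, 3.58 and 2.77 under CO2+temperature to 8.60, 7.96 and 7.77 with drought added (1.19, limma adjusted p = 6.2e-05). The largest rise with drought under CO2 was in TraesCS3D02G109300, from 1.76, 1.47 and 1.95 to 18.2, 5.26 and 12.7 FPKM (2.12, limma adjusted p = 0.00016). TraesCS2D02G162200 rose from 10.9, 8.71 and 8.82 to 13.3, 36.0 and 21.9 (1.14; limma adjusted p = 0.018), a call lost without CO2 replicate 2 or 3 or CO2+drought replicate 2 or 3 (0.052 to 0.11).

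Temperature and CO2 were next compared with each other in plants without drought. Under CO2, 46 of the 271 genes were higher and 21 lower than under temperature (17% and 7.75%, against 12.9% and 14.1% of all genes tested; both directions 24.7%, against 27%), and the median change was 0.07, against -0.03. The 3 CO2 library medians over the set, 2.41 to 2.46, lay within those of temperature, 2.05 to 2.75. Without temperature replicate 1 the counts were 37 higher and 34 lower and the median change was -0.01. The median change was 0.01 without temperature replicate 2, 0.15 without temperature replicate 3 and 0.04 without CO2 replicate 2. Fitting only the libraries compared gave 56 higher and 32 lower. TraesCS4B02G349500 was at 81.2, 115 and 147 scaled FPKM in control, 24.9, 26.5 and 32.5 under temperature and 4.35, 6.17 and 4.48 under CO2 (log2 change -2.27, SE 0.24; limma adjusted p = 1.4e-06). TraesCS4D02G344300 likewise was lower under CO2, by 2.02 (limma adjusted p = 3.5e-07). Both genes were held at a higher level by warm plants than by plants under CO2. The largest rises from temperature to CO2 were in TraesCS6D02G054900 (1.48, 6.76 and 17.9 to 22.9, 21.1 and 22.9 FPKM; 1.71, limma adjusted p = 0.008) and TraesCS5B02G054800 (1.65, limma adjusted p = 3.6e-06). For TraesCS6D02G054900 the rise was 0.94 without temperature replicate 1, and the call was lost when only the libraries compared were fitted (limma adjusted p = 0.085).

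Between plants with both treatments and plants with either, more genes of the set were called lower with both than higher. Compared with temperature alone, CO2+temperature had 38 genes lower and 11 higher (14% and 4.06%, against 5.98% and 7.38% of all genes tested; both directions 18.1%, against 13.4%), with a median change of -0.10, against 0.01. Without temperature replicate 3 the median change was 0.06, and without temperature replicate 1 it was -0.22. The count of genes called higher was 3 without temperature replicate 1 or CO2+temperature replicate 2, 4 without CO2+temperature replicate 3, 6 without temperature replicate 2 and 19 without CO2+temperature+drought replicate 3. Compared with CO2 alone it had 57 lower and 7 higher (21% and 2.58%, against 10.1% and 12.6%; both directions 23.6%, against 22.7%), with a median change of -0.17, against 0.04. The count called higher against CO2 was 2 to 4 without any one of the 6 CO2 and CO2+temperature libraries. Fitting only the libraries compared gave 36 higher and 101 lower against CO2, so the number of rises called depends on the shared estimate of spread. TraesCS4B02G349500 fell further, to 2.30, 1.79 and 2.12 FPKM under both (-3.23 against temperature; limma adjusted p = 1.1e-08), and TraesCS4D02G344300 fell by 2.31 (limma adjusted p = 4.7e-08). TraesCS3A02G355400 was at 5.97, 6.26 and 8.15 under temperature, 12.4, 14.7 and 14.3 under CO2 and 2.01, 1.23 and 1.82 under both (-2.47 against CO2, limma adjusted p = 4.1e-09). TraesCS1A02G290100 fell by 2.13 against CO2 (limma adjusted p = 1.6e-05). In each of these 4 genes the group with both treatments lay below the group or groups it is set against, with no overlap of libraries.

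In the main fit, rises called in the group with both treatments were fewer than falls, and the named rises were less secure. Against temperature, TraesCS6D02G054900 rose by 1.46 (limma adjusted p = 0.035), a call lost without temperature replicate 1 or 2 or CO2+temperature replicate 2 or 3 (0.072 to 0.21), and without temperature replicate 1 the rise was 0.70. It was also lost with the pseudocount of 0.1, with no filter on low values, and when only the libraries compared were fitted (limma adjusted p = 0.24). TraesCS2D02G162200 rose from 7.54, 8.85 and 10.3 to 20.9, 17.9 and 18.3 FPKM (1.02, limma adjusted p = 0.044). That call was lost without any temperature, CO2 or CO2+temperature replicate, and without control replicate 2, drought replicate 2, temperature+drought replicate 3, CO2+drought replicate 3 or CO2+temperature+drought replicate 2 (limma adjusted p = 0.052 to 0.13). It was also lost with median-ratio scaling and with no filter on low values. Against CO2, TraesCS1A02G355300 rose from 3.98, 5.13 and 3.46 to 16.7, 19.6 and 18.4 (1.90, limma adjusted p = 0.027) and TraesCS4A02G298700 from 3.95, 3.85 and 3.74 to 9.25, 7.84 and 7.98 (0.95, limma adjusted p = 0.026). Their libraries did not overlap, but both calls were lost without any CO2 or CO2+temperature replicate (limma adjusted p = 0.05 to 0.081 for TraesCS1A02G355300 and 0.052 to 0.081 for TraesCS4A02G298700).

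Among plants with drought, more genes of the set were called lower under temperature+drought than higher, in libraries whose medians over the set overlapped (1.35 to 2.05, against 1.74 to 2.40 under CO2+drought and 1.49 to 2.51 under CO2+temperature+drought). CO2+drought had 77 of the 271 genes higher and 25 lower than temperature+drought (28.4% and 9.23%, against 17.8% and 17% of all genes tested; both directions 37.6%, against 34.7%), with a median change of 0.26, against 0.006. The SD between replicate medians was 0.341, and without temperature+drought replicate 2 the counts were 54 higher and 32 lower and the median change 0.14. CO2+temperature+drought had 59 higher and 28 lower than temperature+drought (21.8% and 10.3%, against 16.1% and 18% of all genes tested; both directions 32.1%, against 34.1%), with a median change of 0.19, against 0.03 and an SD between replicate medians of 0.435. Without temperature+drought replicate 2 these counts were 44 higher and 29 lower and the median change 0.08. It was 0.03 without CO2+temperature+drought replicate 3 (49 higher and 37 lower), 0.40 without CO2+temperature+drought replicate 1 and 0.34 without temperature+drought replicate 1. Fitting only the libraries compared gave 25 higher and 13 lower. TraesCS5B02G268300 was among the largest rises in both, with 3.54, 12.7 and 6.57 FPKM under CO2+drought (2.71; limma adjusted p = 0.001) and 1.48, 7.58 and 22.5 under CO2+temperature+drought (2.73, limma adjusted p = 0.001). TraesCS5A02G332300 was at 128, 114 and 97.8 in control, 4.66, 6.88 and 5.35 under temperature+drought and 39.4, 45.6 and 42.4 under CO2+drought (2.73, limma adjusted p = 1.5e-06). TraesCS7A02G034500 was higher under CO2+temperature+drought than under temperature+drought by 2.41 (limma adjusted p = 0.0025), though replicate 1 of the former lay within the range of the latter and the rise was 1.53 without replicate 3. When only the 6 libraries compared were fitted, the calls of TraesCS7A02G034500 (limma adjusted p = 0.13) and TraesCS5B02G268300 (0.056) between these groups were lost.

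The opposite order was held by TraesCS3A02G062200, lower under CO2+drought than under temperature+drought (log2 change -2.69; limma adjusted p = 5.9e-07), and TraesCS4D02G360000 (-1.97, limma adjusted p = 0.00028). TraesCS3A02G355400 stood at 8.63, 12.8 and 8.24 under temperature+drought and 0.826, 0.879 and 0.760 under CO2+temperature+drought (-2.56, limma adjusted p = 9.3e-10). TraesCS1A02G355300 stood at 47.2, 8.06 and 20.0 and 0.540, 3.61 and 11.4 in the same groups (-2.23, limma adjusted p = 0.0065), and its libraries overlapped. Its change was -1.47 without CO2+temperature+drought replicate 1, and its call was lost when only the libraries compared were fitted (limma adjusted p = 0.14). Both comparisons with temperature+drought were added after the data were seen, and the one with CO2+temperature+drought crosses the difference of scale.

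By the chromosome that the identifiers name, the D subgenome held 111 of the 272 genes, the B subgenome 83 and the A subgenome 78. These are 40.8%, 30.5% and 28.7% of the set, against 33.9%, 32.4% and 33.7% of all genes tested. Chromosome 2D held 24 genes and 4D held 22, which is 0.989% and 1.2% of their tested genes, while the shares of the other chromosomes ran from 0.333% (6A) to 0.703% (2B). These shares are a description with no test, because neighbouring genes and copies are not independent.

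Some of the genes were neighbours. In the order of the identifiers in the file, 58 of the 272 lay within 10 gene steps of another of the set, in 20 pairs and 6 runs of 3, and 29 lay directly beside another. The same count was not taken for other genes tested, so these numbers are not read as particular to the set. The 6 runs were on chromosomes 1D, 2A, 2B, 2D, 3B and 4D. On 2D the 3 genes were consecutive: TraesCS2D02G583000 stood at 82.4 ± 5.07 scaled FPKM (mean ± SD, n = 3) in control and 4.96 ± 1.51 under temperature+drought, and TraesCS2D02G583100 at 32.6 ± 2.69 and 0.450 ± 0.00271. TraesCS2D02G583200 stood at 65.2 ± 5.49 and 6.69 ± 2.11. The gene before this run averaged 0.131 FPKM in control and the gene after was listed at 0 in every group mean. All 3 were lower with drought under temperature (log2 changes -1.50, -2.02 and -1.48; limma adjusted p = 0.00015, 1.1e-06 and 0.0082), and the first and second also under CO2+temperature (-1.88 and -1.29, limma adjusted p = 3.2e-05 and 0.00036). Means were also lower under CO2+drought than under CO2, at 22.3 against 32.5, 1.53 against 11.3 and 8.51 against 23.8 FPKM for the 3 genes in order.

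On 1D, TraesCS1D02G288400, TraesCS1D02G288700 and TraesCS1D02G288800 averaged 10.7, 29.1 and 65.4 FPKM in control and 0.241, 1.12 and 4.85 under temperature+drought. Each was called lower when drought was added to temperature, to CO2 and to both, with log2 changes from -2.39 to -1.06 and limma adjusted p-values of at most 0.012. The 2 genes between them had smaller gaps, 0.35 and 0.59. On 2B, TraesCS2B02G124600, TraesCS2B02G124800 and TraesCS2B02G125800 averaged 3.92, 17.3 and 7.27 FPKM in control. Under temperature+drought they were listed at 0 in every library except 0.0288 FPKM for TraesCS2B02G124600 in replicate 1 and 0.171 FPKM for TraesCS2B02G124800 in replicate 2. Of the genes between them, TraesCS2B02G125200 had a gap of 0.76, just under the threshold. On 2A, TraesCS2A02G027400, TraesCS2A02G027500 and TraesCS2A02G027700 were low in control, at 1.21, 3.10 and 5.74 FPKM, and all 3 were listed at 0 in every temperature+drought library.

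TraesCS3B02G144400, TraesCS3B02G144500 and TraesCS3B02G144800 averaged 15.1, 1.95 and 34.4 FPKM in control and 1.18, 0.576 and 12.4 under temperature. TraesCS4D02G014100, TraesCS4D02G015000 and TraesCS4D02G015100 averaged 61.9, 31.1 and 3.00 in control and 23.7, 2.41 and 0.0232 under temperature. The 8 genes between the first and second of these on 4D had gaps of -2.04 to -0.05. Among them, TraesCS4D02G014600, TraesCS4D02G014700 and TraesCS4D02G014900 averaged 0, 0.0751 and 0 FPKM in control, so they could not show a loss. The rest of the 8 were detected in control and did not share the loss. None of the 3 genes on 4D was called in any of the 9 comparisons tested.

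**Figure D5:**
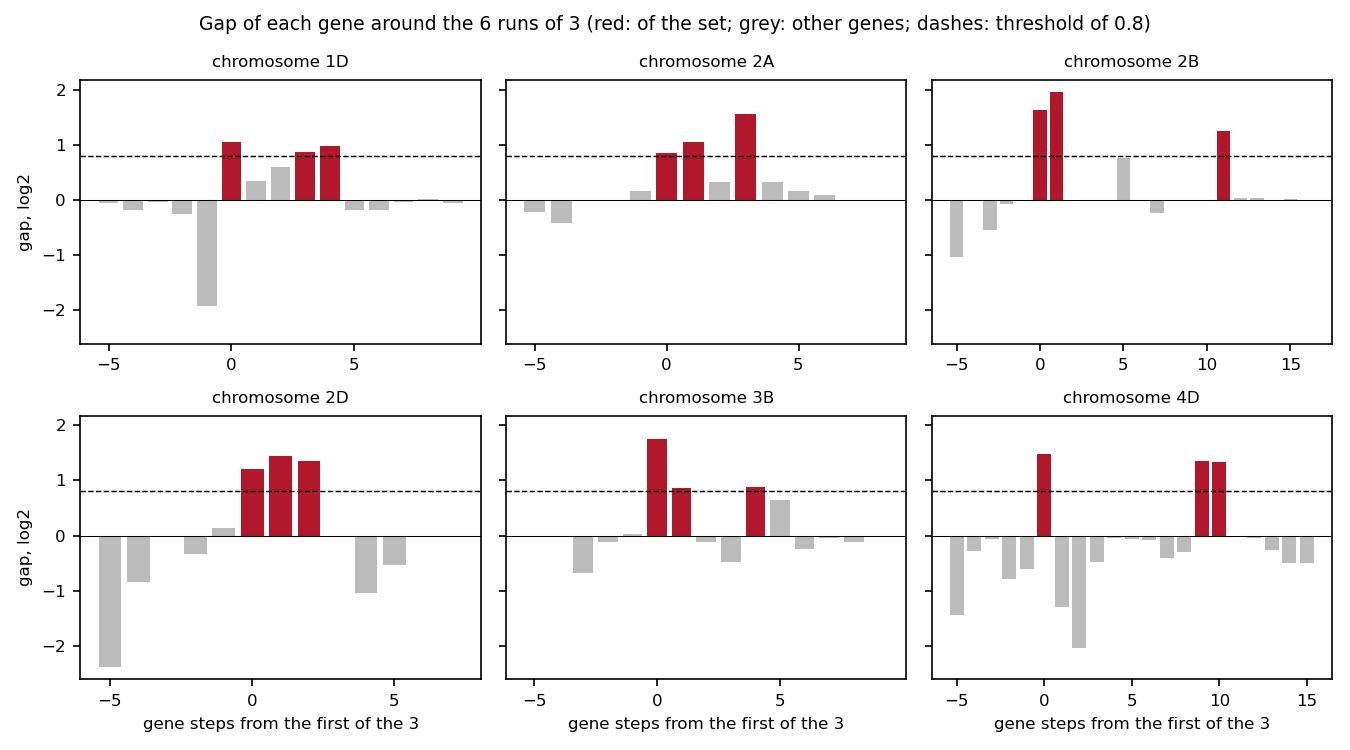
Gap of every gene around the 6 runs of 3, by gene steps from the first of the run; red bars are the chosen genes, grey bars the others, and dashes mark the threshold of 0.8. On 2D the 3 red bars are consecutive, and on 4D the 8 genes between the first and second have gaps below 0.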

How the data were processed

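The deposited table gives FPKM per gene and library, as made by the authors. Per the submitters' processing notes, which give no order of use, the tools were Trim Galore 0.4.1, HISAT2, Cuffdiff and DESeq2. The sources used here do not give the genome build. The table holds no counts, so depth is unknown. The genes, their rule and the comparisons were chosen with earlier results of these data known.

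All 24 libraries were scaled as described above. Differences were fitted with limma 3.58.1 (R 4.3.3) on log2(scaled FPKM + 1), which understates changes of low genes, with a mean-variance trend and 1 coefficient per group, and Benjamini-Hochberg adjustment. Of the 9 comparisons, 7 were planned and 2 added later. Named genes were the 4 with the largest gap, the 4 highest in control, per comparison up to 2 rises and 2 falls among called genes (higher group mean of 5 FPKM or more), those next to the threshold and those of the longest runs. The 5 further rises under drought were named after their values were seen. Alternatives were a pseudocount of 0.1, a gap of 1, values as deposited, median-ratio scaling, no filter, fits of only the libraries compared, a replicate block, and each library left out. Counts called under these alternatives are given without the share of all genes tested, so they show only how far the counts of the set moved. In simulated data for drought minus control, changes of 0.5, 1 and 2 on the log2 scale were called in 38.8%, 85.1% and 97% of genes. The simulated noise was independent between genes and equal in spread between groups, unlike these data. The simulation therefore cannot show how the fit behaves on them. No label says what separates the replicates beyond being biological, so p-values measure the spread between these libraries. That spread was 1 estimate per gene shared by all 24 libraries, and not the spread of only the libraries compared. Groups differed in spread, so the shared estimate can be too large for some comparisons and too small for others.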

Additional observations from a re-analysis of the deposited data

How the results depend on the processing

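With a pseudocount of 0.1 the rule found 517 genes, which included all 272, and with a gap of 1 it found 154. The count called between drought and control was 9. It was 3 with a pseudocount of 0.1, 19 when only the libraries compared were fitted, and 5 to 10 with a library left out. Fitting only the libraries compared gave 137 calls in place of 64 for CO2+temperature against CO2, and 38 in place of 87 for CO2+temperature+drought against temperature+drought. The main fit shared its estimate of spread over all groups. The SD between replicates, as the median over the set, was 0.146 in CO2+temperature and 0.119 in CO2. It was 0.393 in CO2+temperature+drought and 0.301 in temperature+drought. The cause of the different counts was not tested. None of the 36 named changes turned direction under any alternative, and 22 kept their call under all of them. The median change over the set turned sign in 2 comparisons, from 0.07 to -0.01 for CO2 against temperature without temperature replicate 1, and from -0.10 to 0.06 for CO2+temperature against temperature without temperature replicate 3. Of 270 recomputed medians, 4 moved by more than the replicate spread, to -0.56 for CO2+drought against CO2 with a pseudocount of 0.1, and to -0.26, -0.23 and -0.22 for CO2+temperature against CO2 with that pseudocount, as deposited and with median-ratio scaling. Of the gaps of named genes, 10 moved by more than the replicate spread with a pseudocount of 0.1 and 2 with a library left out, TraesCS2A02G027400 to 0.64 and TraesCS3D02G109300 to 0.37. Without each library in turn, the counts called ran from 109 to 145 for drought added to temperature, 75 to 110 for drought added to CO2, and 53 to 98 for drought added to both. Values as deposited moved the median of all genes by -0.194 between temperature+drought and temperature and between CO2+drought and CO2, and by 0.198 between CO2+temperature+drought and temperature+drought. Over all genes tested, same-numbered libraries did not pair as a rule, though some pairs were correlated. Of 84 pairs, 12 had a correlation of deviations above 0.1, with a median of 0.0129 and a range of -0.283 to 0.436. Pairing was not measured over the set alone. With the replicate number as a block, the calls were 8 for drought against control, 129 and 93 for drought added to temperature and to CO2, 68 for drought added to both, 69 for CO2 against temperature, 51 and 63 for CO2+temperature against temperature and CO2, and 99 and 89 for CO2+drought and CO2+temperature+drought against temperature+drought. Of the named changes, the rise of TraesCS2D02G162200 from temperature to CO2+temperature lost its call with the block (limma adjusted p = 0.057). The unknown depth limits what can be said of genes near 0 FPKM.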
